A study of Mus musculus with 66 samples.

Results

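The erythroid microRNAs miR-144, miR-451a and miR-486 were followed in mouse plasma through 7 rows of the count table, mmu-miR-144-3p, mmu-miR-144-5p, mmu-miR-451a, mmu-miR-486a-5p, mmu-miR-486b-5p, mmu-miR-486a-3p and mmu-miR-486b-3p, out of 1826 miRNAs listed. They were chosen by name as the miRNAs best known from red blood cells, together with the ratio of miR-451a to miR-23a-3p, an index of haemolysis. All 7 had UMIs in each of the 13 C3H mice and passed the filter on low counts, as did 1452 of the 1826 miRNAs.

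Circulating miRNAs were sequenced from plasma of 13 males of the inbred C3H strain, taken by cardiac puncture at necropsy. The labels give their time only as more than 12 months after radiation. Of these, 8 mice bore hepatocellular carcinoma (HCC) and 5 did not (non-HCC). Per the methods the HCC group joins radiation-induced tumors with a larger number of spontaneous ones, which the labels do not separate. Which of the 13 mice were irradiated is therefore not known here. A second table holds 53 libraries of tail vein plasma drawn from 15 irradiated F2 mice at 1, 6, 12 and 18 months (7 females and 8 males), the second generation of a cross of BALB/c females with C3H males, all of which later had HCC. The F2 columns carry no label of mouse or month, so they were described as 1 set with no groups. Blood of both cohorts was taken in EDTA and spun several times to remove platelets, and the authors left out plasma whose haemoglobin was above their limit for haemolysis.

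MiR-144 and miR-451a are cut from 1 primary transcript that the red cell factor GATA1 switches on, and both accumulate as erythroblasts mature. MiR-451a is unusual in that its short hairpin bypasses Dicer and is sliced by Argonaute 2, after which the end is trimmed, so that the mature strand runs from the stem into the loop. MiR-486 is transcribed within Ank1, which encodes the red cell membrane protein ankyrin, and it is also made in muscle. All are kept in mature red cells, which release them when they lyse. MiR-23a-3p is little changed by lysis, so its ratio to miR-451a is used to score red cell RNA in plasma.

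The sequences below show why the rows of miR-144 and miR-451a count separate molecules and how miR-451a sits in its hairpin. RefSeq (build GRCm38.p6) held mature sequences for 3 of the 7, printed 5′ to 3′ with the seed, bases 2 to 8, in capitals, and that of miR-23a-3p for the index.
miR-451a: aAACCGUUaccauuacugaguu
miR-144-3p: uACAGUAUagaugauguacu
miR-144-5p: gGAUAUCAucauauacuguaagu
miR-23a-3p: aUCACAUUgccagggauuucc
None of the seeds of the 3 members was shared in full by another of 1679 mature mouse miRNAs. Over bases 2 to 7, miR-144-3p matched 1 other, miR-101a-3p. In the Mir451a hairpin the mature strand, in capitals, takes bases 17 to 38.
Mir451a: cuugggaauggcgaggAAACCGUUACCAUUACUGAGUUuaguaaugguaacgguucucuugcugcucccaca
Bases 18 to 33 pair without a gap with bases 40 to 55, a stem of 16 base pairs, and the last bases of the mature strand lie in the loop.

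Mir144 lies on chromosome 11 from 78073005 to 78073070 and Mir451a 99 bases downstream on the same plus strand, from 78073170 to 78073241 (GRCm38, GENCODE M21). Neither overlaps a protein-coding gene. The nearest gene downstream, Eral1, runs on the minus strand from 78073376 to 78080383. Mir486 lies on the plus strand of chromosome 8 from 23142555 to 23142682, inside Ank1 (22974844 to 23150497, plus strand) and in an intron, since it overlapped 0 of its annotated exons. MiR-486a and miR-486b are near-identical in sequence, so UMIs can be assigned to either, and the split between their rows is uncertain.

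Libraries held 9513136 to 14247488 miRNA UMIs in HCC-bearing mice and 10467560 to 13962539 in the non-HCC mice. HCC mice 1 and 6, 2 and 5, and 3 and 7 had pairwise similar profiles (Pearson r over miRNAs of 0.992 to 0.997, against 0.870 to 0.950 for the other pairs of HCC-bearing mice). Each pair differed by more than counting noise (chi-square per degree of freedom of 44.9 to 97.8), but by less than any pair of non-HCC mice (147 to 1751). The counts cannot show whether the members of a pair came from separate mice. All 8 were kept as separate mice because the labels name them so, and results were also computed with the pairs summed to 5 profiles and without mice 1 and 6, whose index was lowest. The liver miRNA list, miR-122-5p first, took 4.14% to 51.8% of miRNA UMIs in HCC-bearing mice and 0.908% to 1.15% in the non-HCC mice. This bears on each share below, because a larger part for liver miRNAs leaves less for all others.

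The share of plasma miRNA taken by mmu-miR-451a was smaller in each HCC mouse than in any non-HCC mouse. It made up 0.424% to 4.24% of miRNA UMIs in the 8 HCC-bearing mice, with a median of 3.32%. In the 5 non-HCC mice it made up 6.71%, 7.42%, 6.57%, 6.33% and 8.07%. The groups therefore did not overlap, and HCC mice 1 and 6, at 0.488% and 0.424%, lay apart from the other 6, which began at 2.88%. The means were 2.73% ± 1.46 (SD, n = 8) and 7.02% ± 0.713 (SD, n = 5; exact two-sided permutation p over the 1287 ways to split the mice = 0.000777, the smallest possible). That p takes all 8 HCC libraries as separate mice, as the labels name them. Of all 1452 miRNAs tested, 2.07% had a share in each HCC mouse below each non-HCC mouse. With miR-122-5p taken out of the total the shares were 3.30% ± 1.61 (SD, n = 8) and 7.04% ± 0.714 (SD, n = 5; exact permutation p = 0.000777), and the groups still did not overlap, as for 0.895% of all miRNAs. In plasma, fewer source cells and less RNA released per cell cannot be told apart.

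The spike-in scale compares amounts per volume of plasma through 2 synthetic RNAs added to each sample, of which UniSP2 in effect sets the scale. On it the level of miR-451a did not differ between the groups beyond the spread between mice. Its log2 level, the log2 of its UMIs plus 1 over the relative spike-in count, ranged from 15.39 to 20.37 in HCC-bearing mice with a median of 17.78. The non-HCC mice had 18.87, 19.44, 18.98, 19.39 and 20.49. Here 5 HCC-bearing mice lay below all non-HCC mice and the other 3, mice 2, 4 and 5, lay within their range. The means were 18.05 ± 1.81 (SD, n = 8) and 19.44 ± 0.64 (SD, n = 5; exact two-sided permutation p = 0.124). Without mice 1 and 6 the difference of -1.39 shrank to -0.61. MiR-451a thus separated the groups as a part of all miRNA and not as an amount per spike-in, and 0% of all 1452 miRNAs tested separated them downward on that scale.

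**Figure D1:**
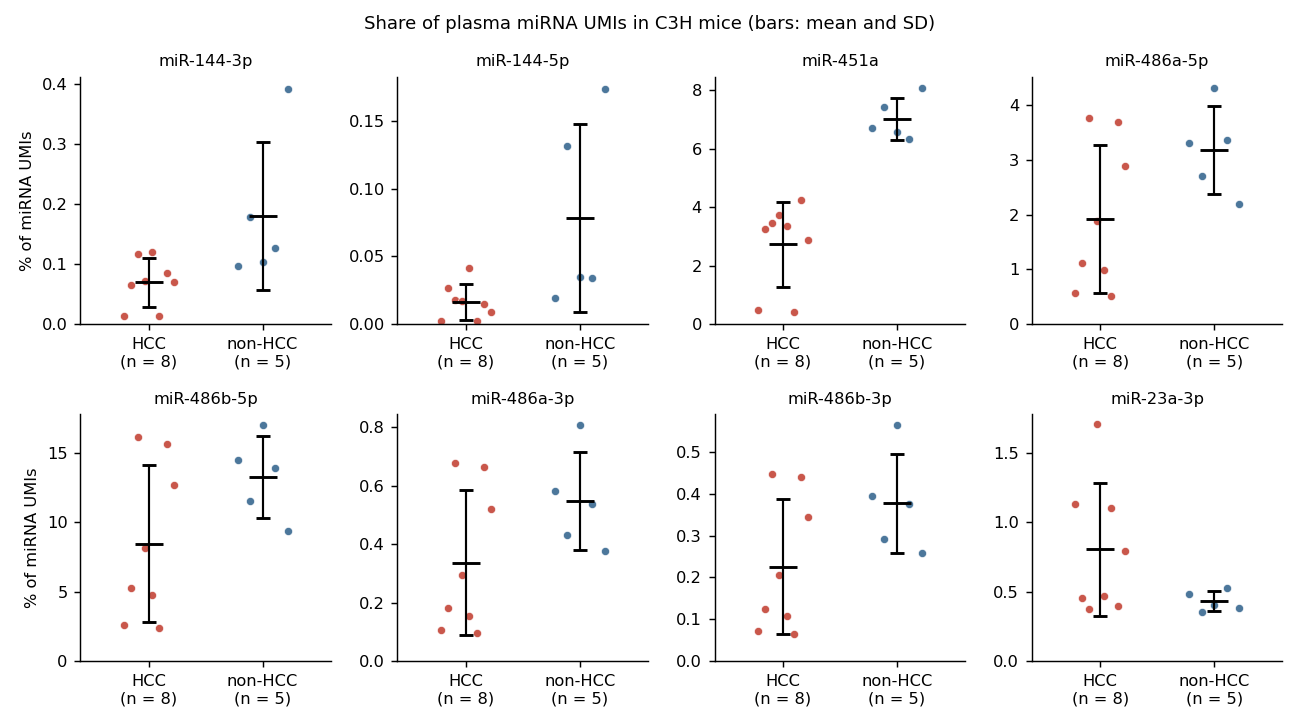
Percent of all miRNA UMIs (vertical axes, each from 0) taken by the 7 erythroid miRNAs and miR-23a-3p in the 8 HCC and 5 non-HCC C3H mice. Points are mice, and bars give the mean and SD. Of these 8 miRNAs, miR-451a alone shows no overlap, with HCC-bearing mice up to 4.24% and non-HCC mice from 6.33%.

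Both arms of miR-144, the partner in the primary transcript of miR-451a, were far less abundant. The arm mmu-miR-144-3p held 1289 to 16794 UMIs in HCC-bearing mice and 10452 to 54734 in the non-HCC mice. As a share this was 0.0132% to 0.120% with a median of 0.0710% in HCC-bearing mice, and 0.0958%, 0.178%, 0.103%, 0.127% and 0.392% in the non-HCC mice. In 6 of the 8 HCC-bearing mice it lay below all non-HCC mice, and mice 3 and 5 lay within the non-HCC range. The mean share was 0.0695% ± 0.0403 (SD, n = 8) against 0.179% ± 0.123 (SD, n = 5; exact permutation p = 0.00777), and without non-HCC mouse 5 the difference of -0.110 percentage points was -0.0565 (exact permutation p = 0.0444). With miR-122-5p taken out of the total the mean shares were 0.0847% in HCC-bearing mice and 0.180% in the non-HCC mice (exact permutation p = 0.0342). On the TMM scale the exact permutation p of the log2 level was 0.0458. The log2 spike-in level was 12.77 ± 1.76 (SD, n = 8) in HCC-bearing mice and 13.93 ± 1.34 (SD, n = 5; exact permutation p = 0.234) in the non-HCC mice.

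The opposite arm, mmu-miR-144-5p, was the least abundant member, with 197 to 5791 UMIs in HCC-bearing mice and 2101 to 24254 in the non-HCC mice. Its share was 0.00202% to 0.0414% with a median of 0.0157% in HCC-bearing mice, and 0.0193%, 0.131%, 0.0346%, 0.0338% and 0.174% in the non-HCC mice. Non-HCC mice 2 and 5 stood above all others, and 6 HCC-bearing mice lay below all non-HCC mice. The mean share was 0.0163% ± 0.0131 (SD, n = 8) against 0.0785% ± 0.0694 (SD, n = 5; exact permutation p = 0.0101), and without non-HCC mouse 5 the difference of -0.0621 percentage points was -0.0383 (exact permutation p = 0.0263). With miR-122-5p taken out of the total the mean shares were 0.0207% in HCC-bearing mice and 0.0787% in the non-HCC mice (exact permutation p = 0.0295). On the TMM scale the exact permutation p of the log2 level was 0.0334. On the spike-in scale the log2 level was 10.47 ± 2.29 (SD, n = 8) and 12.45 ± 1.82 (SD, n = 5; exact permutation p = 0.127).

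The 4 rows of miR-486 overlapped widely. Of these mmu-miR-486b-5p was the most abundant and ranked 4 of all miRNAs by mean share in HCC-bearing mice and 2 in the non-HCC mice. It took 2.41% to 16.1% of miRNA UMIs in HCC-bearing mice, with a median of 6.72%, and 9.39% to 17.01% with a median of 13.9% in the non-HCC mice. HCC mice 3, 7 and 8, at 16.1%, 15.6% and 12.7%, lay among the non-HCC mice, and the other 5 lay below them. The shares of mmu-miR-486a-5p were 0.505% to 3.77% and 2.19% to 4.32%, those of mmu-miR-486a-3p 0.0980% to 0.679% and 0.378% to 0.808%, and those of mmu-miR-486b-3p 0.0655% to 0.447% and 0.258% to 0.563%, in HCC and non-HCC mice in turn. The exact permutation p of these 4 shares lay between 0.0901 and 0.122. No row differed in log2 spike-in level beyond the spread between mice, with exact permutation p of 0.173 to 0.277. All 7 members together took 3.52% to 24.8% of miRNA UMIs in HCC-bearing mice and 20.9% to 29.4% in the non-HCC mice, and 6 of the 8 HCC-bearing mice lay below the lowest non-HCC mouse.

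Across all miRNAs, edgeR's quasi-likelihood test on the spike-in scale called 0 of the 7 members, and all 7 had negative fold changes, against a median log2 fold change of 0.78 over all 1452 miRNAs tested. It called 0% of all miRNAs lower in HCC-bearing mice, and at an unadjusted p under 0.05 there were 3 lower miRNAs and 0 members. The log2 fold change stood at -0.64 with a standard error of 0.71 for miR-451a (adjusted p = 0.737), -0.84 for miR-144-3p (standard error 0.78, adjusted p = 0.659) and -1.35 for miR-144-5p (standard error 0.93, adjusted p = 0.507). The miR-486 rows lay between -0.32 and -0.48. MiR-144-3p had no stable sign, since its log2 fold change was 0.20 without non-HCC mouse 5 and between -1.54 and -0.67 without any other single mouse.

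The scale moved these values more than any mouse did for miR-451a. TMM factors, which set the scale from the bulk of the miRNAs, put the median of all miRNAs at 0.17 and called 2.20% of them lower, again with 0 of the 7 members. For miR-451a this gave a log2 fold change of -1.40 (standard error 0.50, edgeR adjusted p = 0.0916), that of miR-144-3p -1.42 (adjusted p = 0.135) and that of miR-144-5p -2.23 (adjusted p = 0.0704). Unadjusted p were under 0.05 for these 3 of the 7 members, while 7.99% of all miRNAs tested were lower at that level. The miR-486 rows did not pass it with all mice, but all 4 did without HCC mouse 3 or without HCC mouse 7. There 9.73% and 9.67% of all miRNAs tested, in turn, were lower at that level. The adjusted p of the miR-486 rows in those edgeR fits were 0.139 to 0.204. DESeq2 with its own size factors, which called 3.39% of all miRNAs lower, called 1 member, miR-144-5p, with a log2 fold change of -2.19 and a standard error of 0.73 (adjusted p = 0.0216). MiR-451a had an adjusted p of 0.0513 in that DESeq2 fit.

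**Figure D2:**
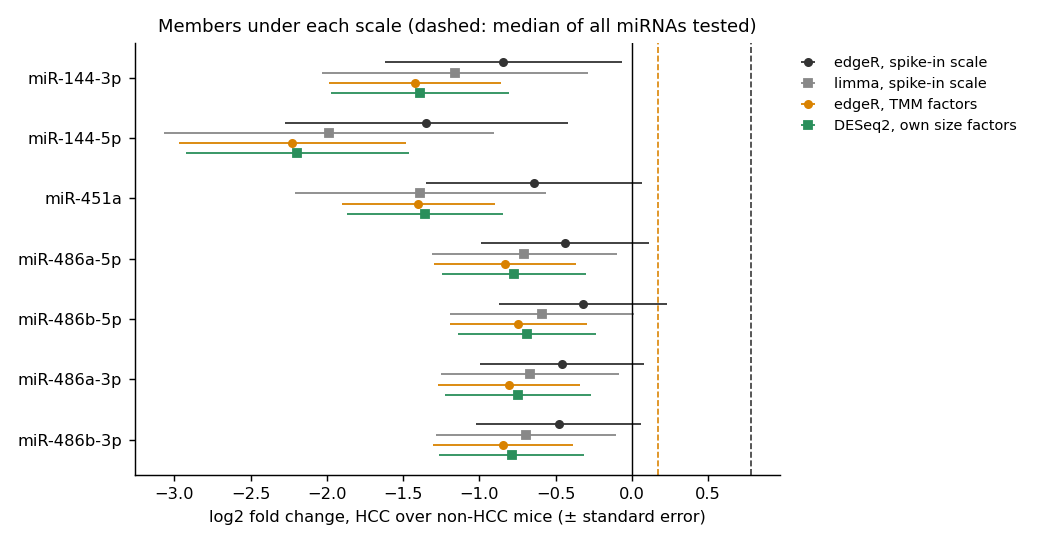
Log2 fold change of each member, HCC over non-HCC mice, with its standard error (horizontal bars), under 2 fits on the spike-in scale and 2 on scales set by the miRNAs. Dashed lines mark the median of all miRNAs tested at 0.78 (spike-in, black) and 0.17 (TMM, orange). All points lie below 0, and those of miR-144 and miR-451a lie lower than those of miR-486 under each of the 4 fits.

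The haemolysis index, the log2 ratio of miR-451a to miR-23a-3p UMIs, needs no library scale. It was lower in each HCC mouse than in any non-HCC mouse. The HCC-bearing mice ranged from -1.39 to 3.41 with a median of 2.35, and the non-HCC mice had 3.80, 4.38, 4.01, 3.58 and 4.40. In linear terms there were 0.383 to 10.7 UMIs of miR-451a for each UMI of miR-23a-3p in HCC-bearing mice and 12.0 to 21.1 in the non-HCC mice. HCC mice 1 and 6 were the only ones with less miR-451a than miR-23a-3p. The means were 1.58 ± 1.93 (SD, n = 8) and 4.03 ± 0.36 (SD, n = 5; exact two-sided permutation p = 0.0140, adjusted over 6 ratios 0.0420). Of the other 1451 miRNAs tested, 2.83% had a ratio to miR-23a-3p that was lower in each HCC mouse.

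The index compares both miRNAs, and their mean differences had opposite signs. In log2 CPM, in which each library is scaled to 1000000 miRNA UMIs, miR-451a was 1.74 lower in HCC-bearing mice on average (14.35 ± 1.37 against 16.09 ± 0.14, SD, n = 8 and n = 5). MiR-23a-3p was 12.76 ± 0.82 in HCC-bearing mice and 12.06 ± 0.24 in the non-HCC mice, a difference of 0.71 that was within the spread between mice (exact permutation p = 0.108). Which of them differed more depended on the scale. On the spike-in scale edgeR gave a log2 fold change of 1.48 for miR-23a-3p (standard error 0.66, adjusted p = 0.207). That of miR-451a was -0.64 (standard error 0.71), and the median of all miRNAs tested was 0.78. HCC mouse 4 shows the part of the denominator, since it held 3.73% of miR-451a, the second highest of its group, and the most miR-23a-3p, 1.71%, which gave it an index of 1.13. With the mean of 5 reference miRNAs as denominator the difference of the index was -1.65 (exact permutation p = 0.0249) in place of -2.45. Without mice 1 and 6 it was -1.49 (exact permutation p = 0.00433), and with similar libraries summed -2.47 (exact permutation p = 0.00794).

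Other blood cell miRNAs had lower shares as well. The list of 5 platelet and leukocyte miRNAs, miR-223-3p and miR-150-5p among them, took 1.23% to 3.25% of miRNA UMIs in HCC-bearing mice and 2.75% to 4.90% in the non-HCC mice, and 7 of 8 HCC-bearing mice lay below all non-HCC mice. With TMM factors edgeR called 4 of the 5 lower, and on the spike-in scale 0. None of the 5 was at 0 in any mouse. The 5 muscle miRNAs, which bear on miR-486, took 0.0383% to 1.47% and 0.0737% to 0.368%. The part of these sources and of the liver miRNAs in the shares and the index was not tested.

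Within the cluster, no difference in the proportion of miR-144-3p to miR-451a was detectable. The log2 ratio of miR-144-3p to miR-451a was -5.27 ± 0.36 (SD, n = 8) in HCC-bearing mice and -5.50 ± 0.70 (SD, n = 5) in the non-HCC mice, and the ranges overlapped (exact permutation p = 0.460, adjusted over 6 ratios 0.552). The lowest HCC-bearing mice for miR-451a, 1 and 6, had ratios of -5.16 and -5.00, in the middle of the range of all mice. The ratio of the arms of miR-144, 5p to 3p, was -2.31 ± 0.61 (SD, n = 8) and -1.48 ± 0.72 (SD, n = 5), with an exact permutation p of 0.0490 that became 0.0979 when adjusted over 6 ratios. Non-HCC mouse 2 had the highest value, -0.44, without which the difference of -0.82 was -0.56.

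MiR-486 and miR-451a did not keep 1 ratio among the mice. The log2 ratio of miR-486a-5p to miR-451a was -0.49 ± 0.82 (SD, n = 8) in HCC-bearing mice and -1.17 ± 0.50 (SD, n = 5) in the non-HCC mice (exact permutation p = 0.130, adjusted over 6 ratios 0.195). Among HCC-bearing mice it ran from -1.77 in mouse 5 to 0.25 in mouse 6. The 2 arms of miR-486a, in contrast, held a steady ratio, -2.52 ± 0.12 (SD, n = 8) and -2.55 ± 0.10 (SD, n = 5; exact permutation p = 0.572, adjusted 0.572). The 5p row of miR-486b exceeded that of miR-486a by 3.93 to 4.82 times over the 13 mice, and the 3p row was 0.658 to 0.698 times that of miR-486a. The a and b rows thus moved almost as 1 measurement.

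MiR-16-5p, the other abundant red cell miRNA and the first in rank in the non-HCC mice, was higher relative to miR-451a within the libraries of HCC-bearing mice. The log2 ratio of miR-16-5p to miR-451a was 2.21 to 3.77 in HCC-bearing mice with a median of 2.78, and 2.09, 1.81, 2.09, 2.18 and 1.73 in the non-HCC mice. Each HCC mouse lay above each non-HCC mouse, by 0.90 on average (exact permutation p = 0.0109, adjusted over 6 ratios 0.0420). The same order held for 21.8% of the other miRNAs against miR-451a, so it is a common property of miR-451a as denominator. The share of miR-16-5p itself overlapped, with 5.74% to 32.1% in HCC-bearing mice and 26.1% to 28.7% in the non-HCC mice, HCC mice 3 and 7 being above all non-HCC mice.

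Of the 9 other miRNAs known from red cells, edgeR called 0 in either direction on the spike-in scale and 0 with TMM factors. Their median log2 fold change was -0.15 on the spike-in scale, against -0.48 for the 7 members and 0.78 for all miRNAs. The values were -0.13 for miR-16-5p, -0.20 for miR-363-3p and -0.12 for miR-92a-3p, and 0.73 for miR-185-5p. With TMM factors the medians were -0.68 for these 9 and -0.84 for the members, against 0.17 for all.

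**Figure D3:**
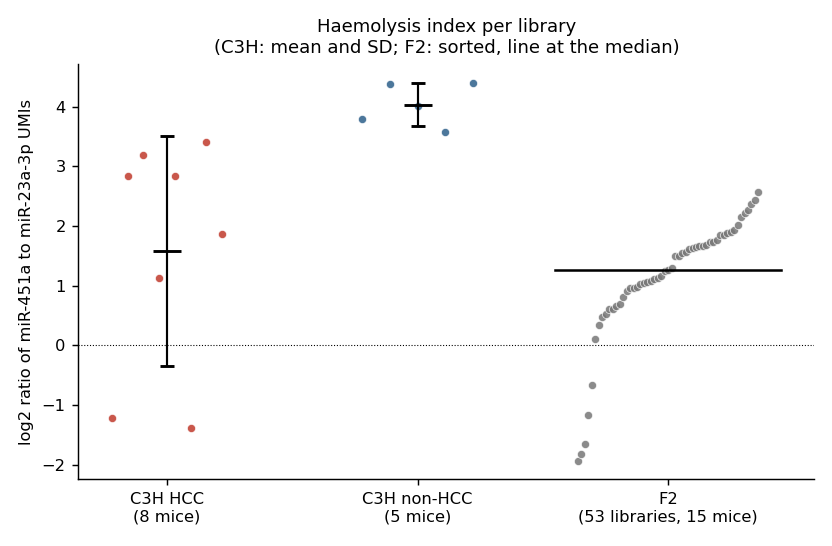
Haemolysis index, the log2 ratio of miR-451a to miR-23a-3p UMIs, in each library of the 8 HCC and 5 non-HCC C3H mice (mean and SD) and of the 53 F2 libraries in ascending order (line at the median of 1.27). All non-HCC mice lie at 3.58 or above, over each HCC mouse, and 5 F2 libraries lie below 0.

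In the F2 cohort the members were described over 53 libraries, which are repeated draws of 15 mice and so are not independent. These libraries were shallower, with 205194 to 3020311 miRNA UMIs. MiR-451a took 0.179% to 2.59% with a median of 1.14%, miR-144-3p 0.0313% to 0.137% with a median of 0.0756%, and miR-144-5p 0.00630% to 0.0351% with a median of 0.0141%. MiR-486b-5p took 6.18% to 20.4% with a median of 10.9%, and ranked 3 of all miRNAs by mean share. The 2 tables come from different mice and different blood draws, so they are set side by side with no test. The labels do not say whether their libraries were sequenced together. MiR-451a ranked 12 in F2 plasma, against 3 in non-HCC and 6 in HCC C3H mice, and there were 1.46 to 29.3 UMIs of miR-486a-5p for each UMI of miR-451a, against 0.272 to 1.19 in C3H mice. The row of miR-486b-5p was 2.04 to 3.93 times that of miR-486a-5p.

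The haemolysis index of the F2 libraries ranged from -1.93 to 2.57 with a median of 1.27 and quartiles of 0.81 and 1.74. In 5 libraries it was below 0, at -1.93, -1.82, -1.65, -1.16 and -0.67, and the next was 0.10. These 5 had the lowest miR-451a of all, 0.179% to 0.297%, while the other 48 began at 0.477%. Their miR-144-3p, 0.0315% to 0.0580%, lay in the lower part of the range of the others, 0.0313% to 0.137%. Their miR-486b-5p did not stand apart, with 9.46% to 13.7% against 6.18% to 20.4%. Their miR-23a-3p was 0.401% to 1.02%, with a median of 0.795% against 0.446% in the others, their miR-122-5p had a median of 8.73% against 2.14%, and their depth was 362269 to 1093236 UMIs. The part of these in the low index was not tested.

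Over the F2 libraries the members fell into a pair of sets. On log2 CPM, Pearson r was 0.70 between miR-451a and miR-144-3p, 0.63 between miR-451a and miR-144-5p, and 0.42 between both arms of miR-144. The 6 pairs among the miR-486 rows had r of 0.63 to 0.98. Between the sets, the 12 pairs had r of -0.11 to 0.35. MiR-144 and miR-451a thus varied together on this measure, and miR-486 varied largely apart from them. In Spearman's rho the values were 0.39 to 0.68 within the cluster, 0.61 to 0.98 within miR-486 and -0.12 to 0.41 between them. In the 48 libraries with an index of at least 0, r was 0.30 to 0.62, 0.64 to 0.98 and -0.14 to 0.41 in turn. In both, the range between the sets overlapped that of the cluster. Both arms of miR-144 (rho 0.39, r 0.30) lay below miR-144-3p with miR-486b-5p (0.41 in each). The medians of the cluster and between the sets were 0.65 and 0.18 in rho, and 0.61 and 0.19 in r. Without the 2 libraries farthest from the median of miR-144-3p, its r with miR-451a was 0.66. Points share depth and scale, and spike-in-scaled levels, in which all miRNAs of a library rise and fall with its spike-ins, gave r of 0.72 to 0.89 also between the sets.

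**Figure D4:**
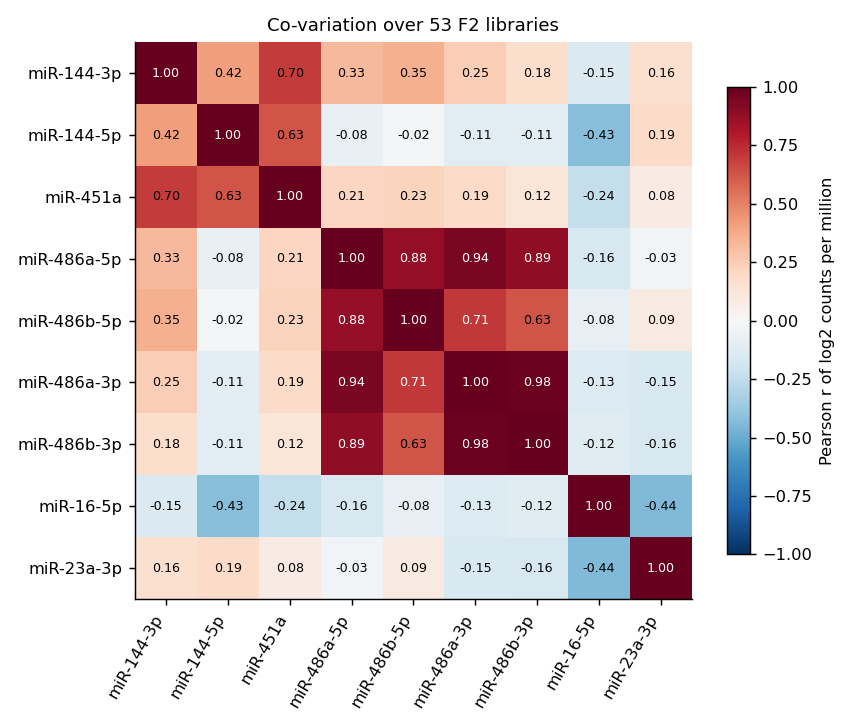
Pearson r of log2 CPM over 53 F2 libraries for the 7 members, miR-16-5p and miR-23a-3p. Red squares mark positive and blue squares negative r. The cluster of miR-144 and miR-451a (0.42 to 0.70) and the miR-486 rows (0.63 to 0.98) form blocks on this measure, with r of -0.11 to 0.35 between them. In Spearman's rho and in CPM over the other miRNAs, the range between the sets overlaps that of the cluster. MiR-16-5p has r of -0.43 to -0.08 with the members.

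MiR-16-5p did not follow miR-451a in F2 plasma, with r of -0.24, or -0.56 in the 48 libraries with an index of at least 0. Its large share, 15.3% to 47.5%, enters the total of each library. With CPM taken over the miRNAs other than the members and miR-16-5p, its r with miR-451a was 0.07. On that measure miR-144-3p had r of 0.71 with miR-451a, and the miR-486 rows had 0.26 to 0.34 with miR-451a. MiR-144-3p had r of 0.44 to 0.58 with the miR-486 rows, above the 0.43 between both arms of miR-144. The sets were therefore not separate on that measure for miR-144-3p. In the 8 HCC C3H mice the picture differed, with r of 0.74 to 0.81 between miR-451a and the miR-486 rows, 0.92 with miR-16-5p, and 0.96 with miR-144-3p. Those mice include the 3 similar pairs, of which mice 1 and 6 are lowest in all of them.

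**Figure D5:**
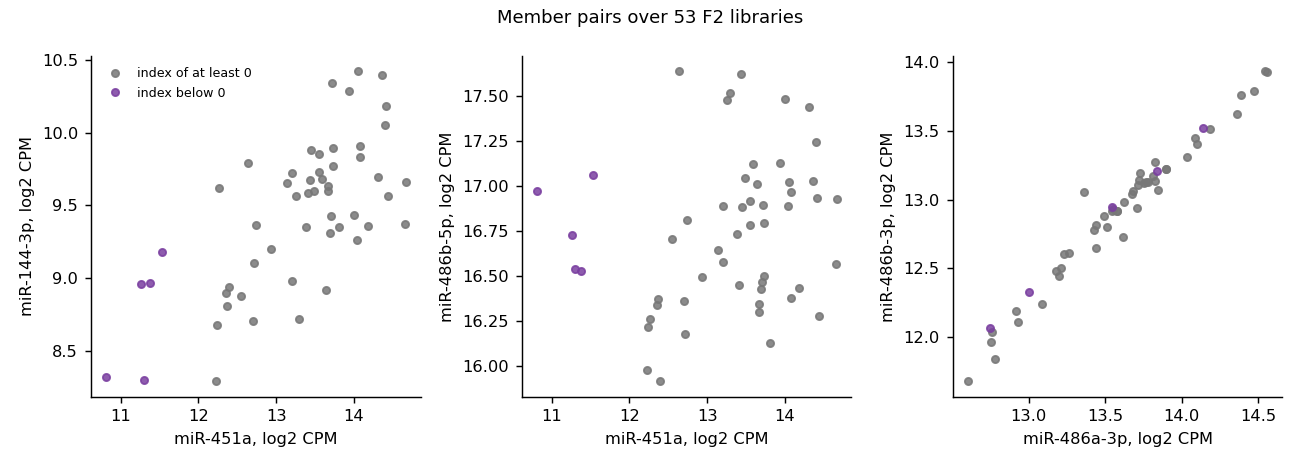
Log2 CPM of 3 pairs of members, 1 point for each of 53 F2 libraries, with the 5 libraries whose index is below 0 in purple. MiR-144-3p rises with miR-451a (left, r = 0.70), miR-486b-5p hardly does (middle, r = 0.23), and the 3p rows of miR-486a and miR-486b lie on 1 line (right, r = 0.98).

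The 5 miRNAs outside the members whose F2 levels were most like miR-451a, among 159 with a median of at least 100 UMIs, were miR-186-5p (r = 0.80), miR-200c-3p (r = 0.74), miR-106b-3p (r = 0.73), miR-26b-5p (r = 0.72) and let-7g-5p (r = 0.72). Ranked together with the members, miR-144-3p was 6 of 165 and miR-144-5p was 10, while the miR-486 rows were 60 to 76 and miR-16-5p lay below all of them. Over the 13 C3H mice the r with miR-451a was 0.96 for miR-186-5p, 0.97 for miR-106b-3p, 0.94 for let-7g-5p, 0.85 for miR-200c-3p and 0.78 for miR-26b-5p, which includes the difference between the groups. In the 48 F2 libraries with an index of at least 0 it was 0.46 to 0.65 for these 5. That cut leaves out the libraries of lowest miR-451a and so narrows its range. A lower r there cannot show what the likeness rests on.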

How the data were processed

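Small RNA libraries of 50 µl plasma carried molecular barcodes and 2 spike-ins, UniSP2 and UniSP4. The authors aligned reads to GRCm38 with miRBase (the submitters' processing notes name FastQC and Bowtie2) and deposited raw UMI counts per miRNA, in which the lowest value above 0 is 10. F2 columns match no sample label. The members and lists were chosen with earlier results of these data known.

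A miRNA was kept where 5 or more mice had 5 or more UMIs, and counts were tested with edgeR 4.0.16 in R 4.3.3 (quasi-likelihood, Benjamini-Hochberg over all miRNAs, threshold 0.05), with the mean spike-in count as library scale. In that mean UniSP2 outweighs UniSP4 (medians of 596252 and 675 UMIs in C3H libraries), so the scale is nearly that of UniSP2 alone. UniSP4 alone gave a log2 fold change of -0.74 for miR-451a and 0 called members. Single values were compared by exact permutation over 1287 splits, with a pseudocount of 1 UMI, in Python 3.11.15. Alternatives were TMM, each spike-in, limma 3.58.1, DESeq2 1.42.0, other filters, blocking on the replicate number and leaving out each mouse in turn. The edgeR step was tested on simulated data with changes larger than those of the members. It therefore cannot show whether changes of their size would be called. Wilson 95% intervals of a share were within 0.963% of the value for miR-451a and 14.0% for miR-144-5p. They cover counting error only.

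The miRNAs named are the 7 members, miR-23a-3p, up to 4 of 9 other red cell miRNAs (miR-16-5p, miR-363-3p, miR-92a-3p, miR-25-3p, miR-15b-5p, miR-20a-5p, miR-106b-5p, miR-185-5p, miR-425-5p), and the 5 most like miR-451a in F2 plasma. Lists were platelet and leukocyte (miR-126a-3p, miR-150-5p, miR-142a-5p, miR-142a-3p, miR-223-3p), liver (miR-101b-3p, miR-194-5p, miR-192-5p, both arms of miR-122), muscle (miR-499-5p, miR-208b-3p, miR-206-3p, miR-133a-3p, miR-1a-3p) and reference miRNAs (miR-23a-3p, miR-23b-3p, miR-30c-5p, miR-103-3p, miR-191-5p).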

Additional observations from a re-analysis of the deposited data

Results flagged for a closer look

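In non-HCC mice the share of miR-144-3p in mouse 5, 0.392% of miRNA UMIs, stood apart from the other 4, which lay between 0.0958% and 0.178%. Its gap to the nearest mouse exceeded Dixon's critical value. This was 1 of 48 groups of values searched, of which chance alone marks about 1 in 20. On the log2 spike-in scale the same mouse, at 16.13, was not marked.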

How the results depend on the processing

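All numbers of called members were 0 except 1 with DESeq2's own size factors (miR-144-5p), and, in settings chosen after seeing the data, 1 with TMM factors without HCC mouse 5 (miR-144-5p), 1 with TMM factors and the replicate number as a block (miR-144-5p) and 1 with TMM factors without HCC mice 1 and 6 (miR-451a, edgeR log2 fold change -1.05, adjusted p = 0.0196). Those TMM fits called 135, 91 and 100 of all miRNAs in turn, of which 99, 71 and 73 were higher in HCC-bearing mice and the rest lower. Leaving out 1 mouse moved the fold change of miR-144-3p between -1.54 and 0.20. The log2 level of miR-451a differed by -1.85 on the TMM scale (exact permutation p = 0.0148). The ratio of both miR-144 arms passed an unadjusted p of 0.05 with all mice, but not with a pseudocount of 10 (-0.81), with similar libraries summed (-0.88), without mice 1 and 6 (-0.71) or without 10 of the 13 single mice (all 13 leave-outs gave -1.03 to -0.56, of which -1.03, -0.97 and -0.93, without non-HCC mouse 1, HCC mouse 2 and HCC mouse 5, passed). Leaving out 1 mouse gave 0.069 to 0.51 for miR-144-3p to miR-451a and 0.51 to 0.86 for miR-486a-5p to miR-451a, past the threshold in 1 case each. The ratio of both miR-486a arms was -0.0092 without HCC mice 1 and 6. The cause of these changes was not tested. Over F2 libraries, spike-in scaling raised r to 0.90 for miR-144-3p and miR-451a, 0.79 for miR-486a-5p and miR-451a and 0.98 for both miR-486 5p rows, and CPM over the other miRNAs gave 0.33 for miR-486a-5p and miR-451a. Same-numbered HCC and non-HCC mice share only a number (correlations of deviations from -0.13 to 0.07). With the replicate number as a block the index differed by -2.28 (exact sign-flip p = 0.0625, the smallest that 5 pairs allow) and 0 members were called on the spike-in scale. Of the miR-486 shares, those of miR-486a-5p, miR-486b-5p and miR-486b-3p passed without 1 or 2 single mice (lowest exact permutation p = 0.0429). The shares of miR-451a and both miR-144 arms and the index kept direction and side of the threshold under every other setting. Depth limits miR-144-5p most, with 197 UMIs in 1 mouse.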

Other observations

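The table also lists miR-451b, whose hairpin is the reverse complement of Mir451a on the minus strand of the same 72 bases. This row was looked at after the values of miR-451a were seen. It held 18 to 57 UMIs in HCC mice and 78, 154, 79, 80 and 121 in non-HCC mice, in libraries of similar depth. Each HCC mouse had a share below that of each non-HCC mouse, which held for 2.07% of all 1452 miRNAs tested. The log2 spike-in levels of this row overlapped, running from 4.04 to 6.99 with HCC and from 5.69 to 7.32 without. Wilson 95% intervals of its share were within 47.4% of the value. MiR-451a held 41265 to 501965 and 687850 to 1126503 UMIs in the same mice.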
